A study of Mus musculus with 6 samples.

Results

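Replication-dependent histone genes were examined in mouse fully-grown oocytes (FGOs) of the germinal vesicle (GV) stage, which are grown but still arrested in the prophase of meiosis I. The members were the genes whose deposited symbol begins with Hist1h, Hist2h, Hist3h or Hist4h, which gave 67 of the 24255 genes in the table. They comprised 6 H1, 18 H2A, 18 H2B, 12 H3 and 13 H4 genes. Wild type (WT) FGOs were compared with Lsm14b-KO FGOs, with 3 libraries per genotype and 20 oocytes per library. The KO females were homozygous for Lsm14b tm1a(KOMP)Mbp, a knockout-first allele in which a reporter-tagged cassette is inserted into the gene in every cell of the animal, so that the oocytes had also grown in mutant ovaries. The colony was kept on a C57BL/6J background. All females of both genotypes had received 5 IU of PMSG, a gonadotropin that drives follicle growth, 46 h before collection. LSM14B binds RNA in oocytes, and the question was how far loss of Lsm14b changed the RNA of these genes. The labels do not say how many females gave the oocytes of a library, so the p-values measure the spread between libraries.

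Histones are the proteins around which DNA is wound. H2A, H2B, H3 and H4 form the core of the nucleosome, and H1 binds the linker DNA. The genes of the clusters supply histones for newly replicated DNA in dividing cells. Their mRNAs usually lack introns and end in a conserved stem-loop in place of a long poly(A) tail, and the stem-loop is bound by SLBP. A growing or fully grown oocyte does not replicate its DNA, but it stores histone mRNAs and proteins for the cleavage divisions of the embryo. Since the 3′ end differs from that of other mRNAs, detection in a library depends on how the cDNA was primed. The labels name random primers for the reverse transcription and Smart-seq2 for the amplification. Protocols of the latter kind usually prime on poly(A).

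The members lie in 4 places of the genome (GRCm38, the assembly of mm10). Chromosome 13 holds 53 of them within 2.22 Mb, chromosome 3 holds 10, chromosome 11 holds 3 and chromosome 6 holds Hist4h4 alone. The stem-loop was searched for with the letters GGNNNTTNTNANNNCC on the sense strand of the GENCODE vM21 transcripts. It was found in 46 (68.66%) of the 67 members, against 3.65% of the 55341 genes in that annotation. Of the 21 members without it, 14 have a model that stops at the stop codon, so their 3′ end is not in the annotation. The sequences below are the ends of 6 members to which the results return, one or more per family, with the 16 bases of the stem-loop in capitals and the coordinates of those 16 bases. They show how little the processing signal differs between families.
Hist1h1e (chr13:23621782-23621797, minus strand): cccaaaGGCTCTTTTCAGAGCCacccacaa
Hist1h2ae (chr13:23570668-23570683, minus strand): aacaaaGGCTCTTTTCAGAGCCattcactt
Hist1h2bg (chr13:23571843-23571858, plus strand): cccaaaGGCTCTTTTCAGAGCCacccatac
Hist1h3f (chr13:23544932-23544947, plus strand): caaaacGGCTCTTTTAAGAGCCacctccat
Hist1h4a (chr13:23760800-23760815, minus strand): accaaaGGCCCTTCTCAGGGCCgcccacat
Hist4h4 (chr6:136803998-136804013, minus strand): cacaaaGGCCCTTTTCAGGGCCcacaaagc
The form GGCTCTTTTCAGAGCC was shared by 26 members of H1, H2A, H2B and H3. The form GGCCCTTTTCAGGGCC was carried by 7 members, all of them H4.

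The deposited gene models mostly end at the processing site. Of 59 members with a locus of their own, 35 have a deposited model that ends 4 to 8 bases after the stem-loop. The models of Hist1h2be and Hist1h2bp run on for 1862 and 1275 bases, and that of Hist1h4j stops 45 bases short of it. The GENCODE models of Hist1h2bc and Hist1h2br do not contain the motif. Another 8 members share their deposited locus in pairs (Hist1h2ao with Hist1h2ap, Hist1h4m with Hist1h4n, Hist2h2aa1 with Hist2h2aa2, Hist2h3c1 with Hist2h3c2), and how the fragments were divided within such a pair is uncertain. Near-identical copies are frequent. For 56 of the 67 members another gene shared a stretch of 200 nt or longer at no less than 95% identity, and for most of these the split between copies is likewise uncertain. The count includes Hist1h1e, Hist2h2bb and Hist3h2a, whose only matches are genes that overlap them in the annotation. It also includes Hist4h4, whose only match is Olfr1152, which is not a histone gene. The 11 members without such a copy included Hist1h2aa, Hist1h2ba, Hist1h1a and Hist1h4d. All 18 H2A genes overlap an annotated gene on the other strand, and the sources used here do not say whether the libraries keep the strand.

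All 12 oocyte markers reached 1 FPKM (fragments mapped, scaled to transcript length in kilobases and to library size), while 3 of 17 cumulus and granulosa cell markers did so. The summed level of the latter was 9.73 to 13.5 FPKM in WT and 6.13 to 10.2 FPKM in Lsm14b-KO libraries, with Foxl2, Amh and Cyp11a1 at 0 throughout. Of the oocyte markers Ddx4, Kit and Nobox were called higher and Dazl lower in Lsm14b-KO (33.3% of the 12, against 21.6% of all genes tested). Ddx4 reached 1 FPKM in the Lsm14b-KO libraries alone. Cyp19a1, the most abundant granulosa marker, had 11.5, 8.26 and 10.5 FPKM in WT and 5.47, 3 and 5.76 FPKM in Lsm14b-KO libraries (limma adjusted p = 0.0426). With each library set to the same FPKM sum its adjusted p was 0.309. The other granulosa markers tested went the other way, Fshr by 0.73 (log2, adjusted p = 0.0923) and Inha by 0.38 (adjusted p = 0.301). Fshr had 1.68, 0.526 and 0.349 FPKM in WT and 2.07, 1.91 and 1.82 FPKM in Lsm14b-KO libraries. Inha reached 1 FPKM in Lsm14b-KO replicate 3 alone. The part of these markers in the results below was not tested. None of the red blood cell, stromal and white blood cell markers reached 1 FPKM. Lsm14b had 2.77, 3.98 and 1.72 FPKM in the WT and 0, 0 and 0.102 FPKM in the Lsm14b-KO libraries (log2 fold change -1.85, SE 0.25, limma adjusted p = 0.0038). The groups did not overlap, in the direction that the labels give, and the two-sided exact permutation p was 0.10, which is the lowest possible with 3 against 3 libraries. Relative depth, read from the steps between low FPKM values, was 1 to 1.14 in WT and 1.33 to 2.18 in Lsm14b-KO libraries, while the FPKM sums went from 1141324 to 1244182 and from 564671 to 1029728. Depth and FPKM sum therefore move with genotype beside every difference below, and their part in it was not tested.

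Transcripts of the clusters were detected in every library. In WT replicates 1, 2 and 3, 49, 52 and 50 of the 67 members were above 0, and in Lsm14b-KO replicates 1, 2 and 3 the numbers were 51, 55 and 51. These shares of 73.1% to 82.1% compare with 42.5% to 48.4% of all genes in the table. At least 0.1 FPKM was reached in all 6 libraries by 40 members. At 0 in all 6 were Hist1h1b, Hist1h1t, Hist1h4f, Hist1h4m, Hist1h4n, Hist2h2be and the pseudogene Hist3h2bb-ps. Hist1h1t encodes the linker histone of spermatocytes. Of 4 other RNAs without a poly(A) tail in the table, Rnu7 and Terc were also at 0 in all 6 libraries, and Rmrp and Rpph1 were each above 0 in 1 library.

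The groups separated at the limits of 1 and 10 FPKM. At 1 FPKM or more stood 47, 49 and 48 members in WT and 42, 43 and 43 in Lsm14b-KO libraries, without overlap. The number of all genes at 1 FPKM was 4833 to 4854 in WT and 4873 to 4964 in Lsm14b-KO libraries, which is the opposite order. At 10 FPKM or more stood 27, 26 and 27 members in WT and 23, 15 and 20 in Lsm14b-KO libraries. Across all 6 libraries 32 members stayed at 1 FPKM or more, of which 14 were H2B, 8 H4, 5 H2A, 4 H3 and 1 H1 genes. Most members are so short that a single fragment is worth about 0.75 to 1.5 FPKM in a WT and about 0.4 to 1.1 FPKM in a Lsm14b-KO library, for loci of 430 to 600 bases. Below about 2 FPKM a value of these genes is thus 1 fragment or a few, and the limit of 1 FPKM lies at a different fragment number in the deeper libraries. The part of this in the split of the members at 1 FPKM was not tested. The count over all genes, which are not limited to such short loci, does not measure it.

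**Figure D1:**
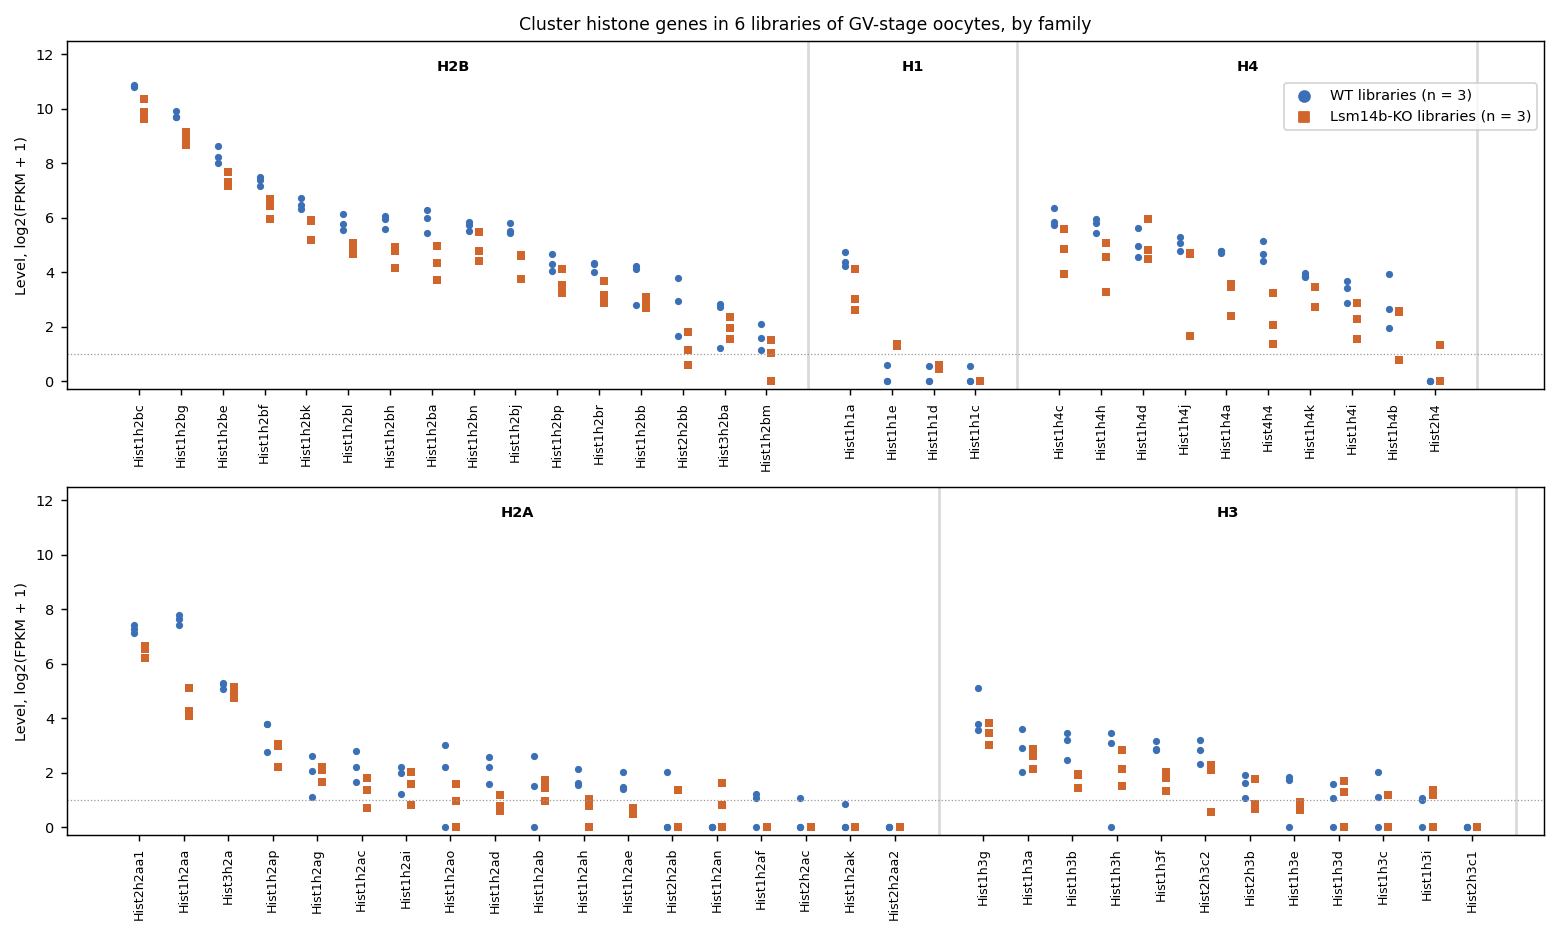
Level of the 60 members above 0 in at least 1 library, as log2(FPKM + 1), with 1 point per library (circles WT, squares Lsm14b-KO, 3 each) and the genes of each family ordered by mean. The dotted line marks 1 FPKM, and Hist1h2bc and Hist1h2bg stand highest in all 6 libraries. The 3 Lsm14b-KO points lie under the 3 WT points for 11 of the 16 H2B genes tested, against 26.0% of all genes tested.

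H2B genes made up most of the signal. Their summed level was 3894, 3575 and 3413 FPKM in WT and 2442, 1552 and 1866 FPKM in Lsm14b-KO libraries, which was 81.8% to 87.1% of the FPKM of all members in every library. H2A followed with 446, 390 and 434 FPKM in WT and 185, 130 and 164 FPKM in Lsm14b-KO libraries. H4 had 247 to 297 FPKM in WT, H3 49.2 to 71.1 FPKM and H1 18.3 to 26.3 FPKM. The 5 members of highest mean over the 6 libraries held 75.1% to 82.4% of the sum in each library. The core histones meet in equal numbers in a nucleosome, but the levels of these RNAs differed widely between families.

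Summed over all 67 members, the WT libraries held 4396 ± 244 FPKM (SD, n = 3). The Lsm14b-KO libraries held 2290 ± 554 FPKM (SD, n = 3), which is 0.521 times as much. All 3 Lsm14b-KO sums lay below the 3 WT sums, for the members together and for each of the 5 families. As a share of the library's FPKM sum, which was itself lower in the Lsm14b-KO libraries, the members held 0.371% ± 0.00447 (SD, n = 3) in WT. The share was 0.307% ± 0.0244 (SD, n = 3) in Lsm14b-KO libraries, or 0.829 times as much. Libraries of pooled oocytes cannot tell less RNA per oocyte from fewer oocytes that hold the RNA. By share, H2A was at 0.609 times the WT value, H4 at 0.761, H1 at 0.805, H2B at 0.859 and H3 at 0.868 times. The shares of the libraries did not overlap between genotypes for H2A and H2B, but they did for H1, H3 and H4. Much of the H2A difference lay in Hist1h2aa. It held 223, 170 and 198 of the 446, 390 and 434 FPKM of H2A in WT. In Lsm14b-KO libraries it held 33.7, 15.9 and 18.1 of 185, 130 and 164 FPKM. The H2A share without Hist1h2aa was not computed, so the separation is not shown for the other H2A genes.

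**Figure D2:**
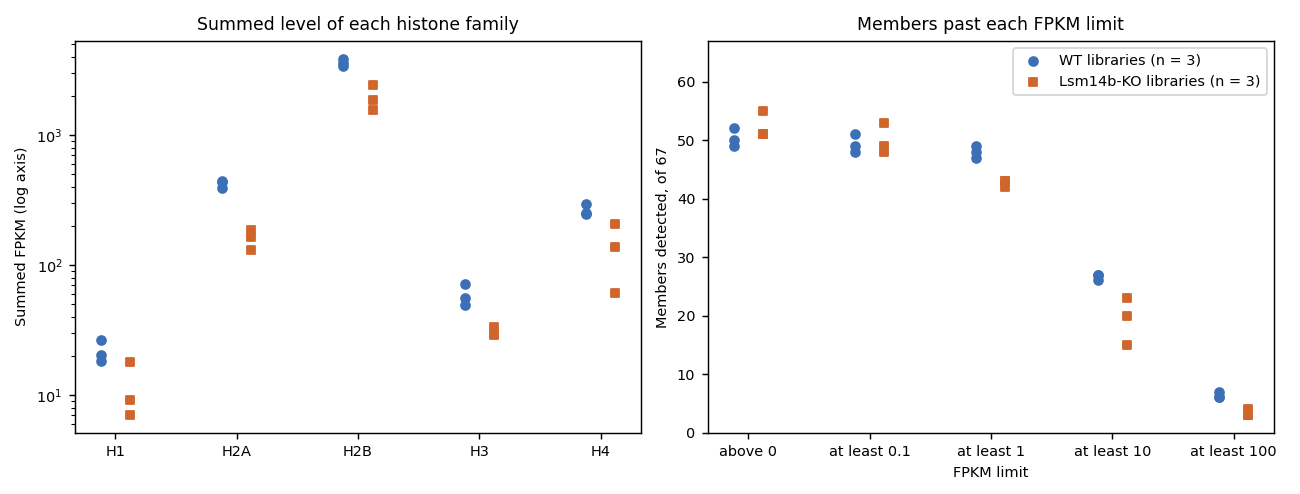
Left, summed FPKM of each histone family on a log axis; right, number of the 67 members past each FPKM limit, with 1 point per library in both (circles WT, squares Lsm14b-KO, 3 each). The Lsm14b-KO points lie below the WT points in every family, whereas the numbers of members above 0 overlap (49 to 52 against 51 to 55).

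To compare the genotypes gene by gene, limma was run on log2(FPKM + 1) for the 6398 genes that reached 1 FPKM in at least 1 library. Of these 6398, 21.6% were called at an adjusted p under 0.05, 15.2% lower and 6.38% higher in Lsm14b-KO. Among the members, 55 passed the filter and 14 were called. Lower were 13, namely Hist1h2aa, Hist1h2ad, Hist1h2ae, Hist1h2ah, Hist1h2ba, Hist1h2bh, Hist1h2bj, Hist1h2bl, Hist1h2br, Hist1h3b, Hist1h3f, Hist1h4a and Hist4h4. Hist1h1e alone was higher. The share of members called, 25.5%, was near the background, and that of members called lower, 23.6%, was above the 15.2% of all genes. The groups did not overlap for 26 of the 55 members in the lower and for 1 in the higher direction, against 26.0% and 19.1% of all tested genes. The 12 members under 1 FPKM in all libraries were not tested.

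Over the 55 members tested the median log2 fold change was -0.84, against -0.08 over all genes tested. Setting each library to the same FPKM sum (TPM scaling) moved the median of all genes by 0.48, to 0.40, so that values are best read against it. Relative to all genes the members' median was -0.77 on deposited FPKM, -0.69 under TPM scaling, -0.53 under quantile normalization and -0.18 once trends with transcript length and GC content were removed in each library. The count of calls moved as well. Under TPM scaling 1 member was higher and 3 were lower (background 13.0% and 7.60%). Under quantile normalization 1 was higher and 8 were lower (background 8.44% and 11.5%), and under the length and GC correction 3 were higher and 4 were lower (background 10.1% and 12.7%). With no filter on low values 1 was higher and 5 were lower, 6 in all, among 14325 genes of which 1.24%, 3.78% and 5.03% were so called. Single libraries moved the count further. It was 4, 4 and 5 without WT replicate 1, 2 or 3 (background 6.50%, 6.78% and 8.55%, against 7.27%, 7.41% and 9.09% of the members). It was 29, 12 and 2 without Lsm14b-KO replicate 1, 2 or 3 (background 47.0%, 14.8% and 5.06%, against 54.7%, 21.8% and 3.64% of the members), so that the count mostly moved with that of all genes. Hist1h2bc, for example, was at 1320 FPKM in Lsm14b-KO replicate 1 and at 781 and 955 FPKM in the other Lsm14b-KO libraries.

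**Figure D3:**
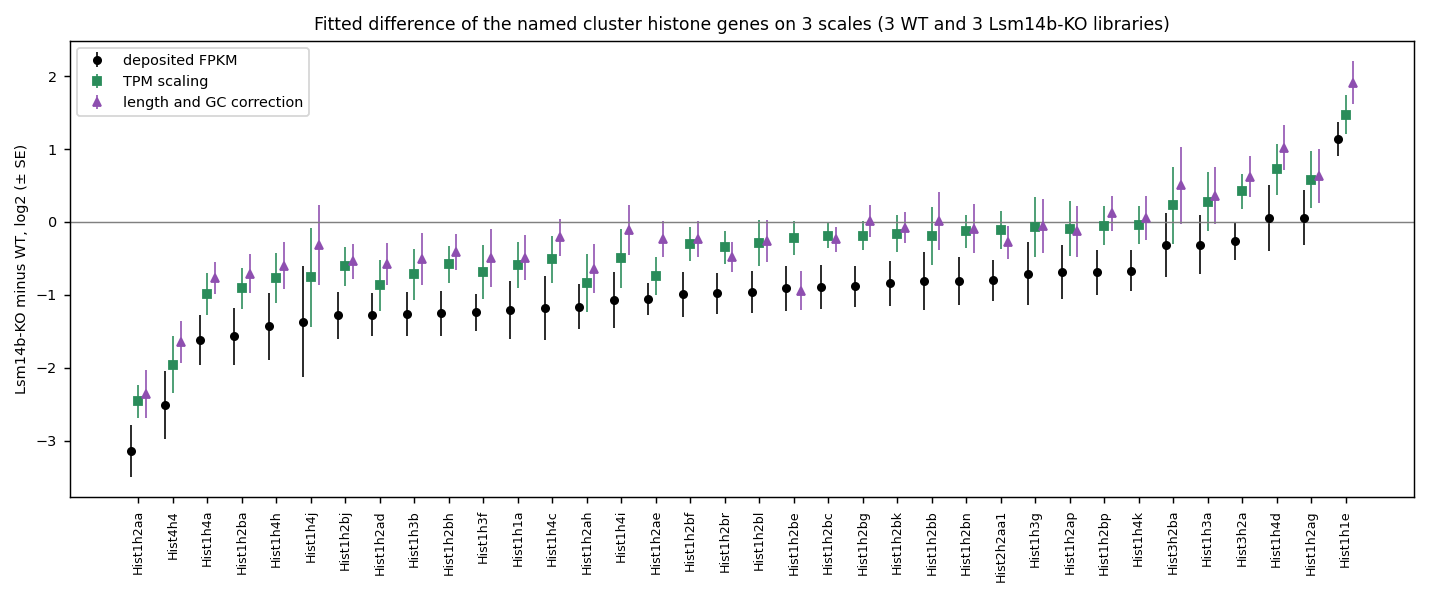
Fitted difference between Lsm14b-KO and WT libraries (log2, bars show SE, 3 libraries per genotype) of the tested members named in the text, on deposited FPKM (circles), after TPM scaling (squares) and after the length and GC correction (triangles). Hist1h2aa, Hist4h4 and Hist1h4a lie below 0 and Hist1h1e above 0 on all 3 scales, while most H2B genes lie closer to 0 on the other scales than on FPKM.

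The largest fall was that of Hist1h2aa, which encodes TH2A, an H2A variant of testis and oocyte (chr13:23934462-23934851, plus strand). Its level was 223, 170 and 198 FPKM in WT and 33.7, 15.9 and 18.1 FPKM in Lsm14b-KO libraries. Each Lsm14b-KO library lay far under each WT library, at a mean of 0.115 times. On the log2 scale it fell by 3.14 (SE 0.35, adjusted p = 0.00197), and it stayed lower and past the threshold in all 15 alternatives, with -2.46 under TPM scaling and -2.36 under the length and GC correction. By the steps of the FPKM values these levels correspond to about 167, 145 and 153 fragments in WT and about 34, 23 and 29 in Lsm14b-KO libraries, although the latter were sequenced more deeply. In WT it was the most abundant H2A gene, and in each Lsm14b-KO library it ranked below Hist2h2aa1 and Hist3h2a.

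Hist1h2ba encodes TH2B, the H2B partner of TH2A, and is transcribed away from it (chr13:23933773-23934156, minus strand). It had 76.8, 62.7 and 42.9 FPKM in WT and 29.8, 12.2 and 19.4 FPKM in Lsm14b-KO libraries. The groups did not overlap, and Hist1h2ba fell by 1.57 on the log2 scale (SE 0.39, adjusted p = 0.0273). The call was lost under TPM scaling (-0.91, adjusted p = 0.0522), quantile normalization (-1.17, adjusted p = 0.0538) and the length and GC correction (-0.71, adjusted p = 0.099). It was also lost with no filter on low values (adjusted p = 0.0652). Without WT replicate 1, 2 or 3 or Lsm14b-KO replicate 3 it was lost as well (adjusted p = 0.112, 0.0995, 0.0556 and 0.103). Neither gene of this pair has a near-identical copy.

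H2A and H2B genes often lie head to head. In 11 pairs the annotated starts face away from each other with fewer than 1000 bases between them. The promoters of 61 members (250 bases before to 50 after the start, RefSeq, GRCm38.p6) were searched on both strands for ATTTGCAT, the octamer bound by POU factors and known from H2B promoters, and for CCAAT and TATAAA. The octamer was found in 7 of 18 H2A and 7 of 15 H2B promoters and in none of the H1, H3 and H4 promoters, against 1.74% of the 32851 promoters in the table. CCAAT was found in 52 of the 61 (37.4% of all promoters) and TATAAA in 35 (13.6%). The windows of 3 pairs, each between the starts of its genes, are given below, since each belongs to a strong and a weak gene or to the TH2A and TH2B genes, with the octamer in capitals.
Hist1h2aa and Hist1h2ba (chr13:23934302-23934331, minus strand): gaattccccttATTTGCATgcacccagcac
Hist1h2ae and Hist1h2bg (chr13:23571330-23571359, plus strand): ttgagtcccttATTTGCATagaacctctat
Hist1h2ah and Hist1h2bk (chr13:22035780-22035809, plus strand): catttcactttATTTGCATacgaagttcta
A match is a description of the letters and does not show that a factor binds there.

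The H2B gene stood above the H2A gene in all 6 libraries in 9 of the 11 pairs. Hist1h2bg had 972, 839 and 825 FPKM in WT and 564, 408 and 465 FPKM in Lsm14b-KO libraries, and Hist1h2ae, whose start lies 175 bases away, had 1.8, 3.02 and 1.66 FPKM and 0.643, 0.458 and 0.391 FPKM. The ratio of the means was 407 in WT. Hist1h2bc had a mean of 1841 FPKM and its neighbor Hist1h2ac of 3.91 FPKM in WT. Among these 9 pairs the WT ratio was lowest for Hist1h2br and Hist1h2ap, at 1.7, where Hist1h2ap shares its deposited locus. The order was turned for Hist1h2aa and Hist1h2ba, with an H2B to H2A ratio of 0.217 to 0.368 in the WT libraries and of 0.763 to 1.07 in the Lsm14b-KO libraries. The WT and KO ratios of that pair did not overlap. In the remaining pair Hist2h2be was at 0 throughout and Hist2h2ac was above 0 in WT replicate 2 alone, at 1.08 FPKM.

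**Figure D4:**
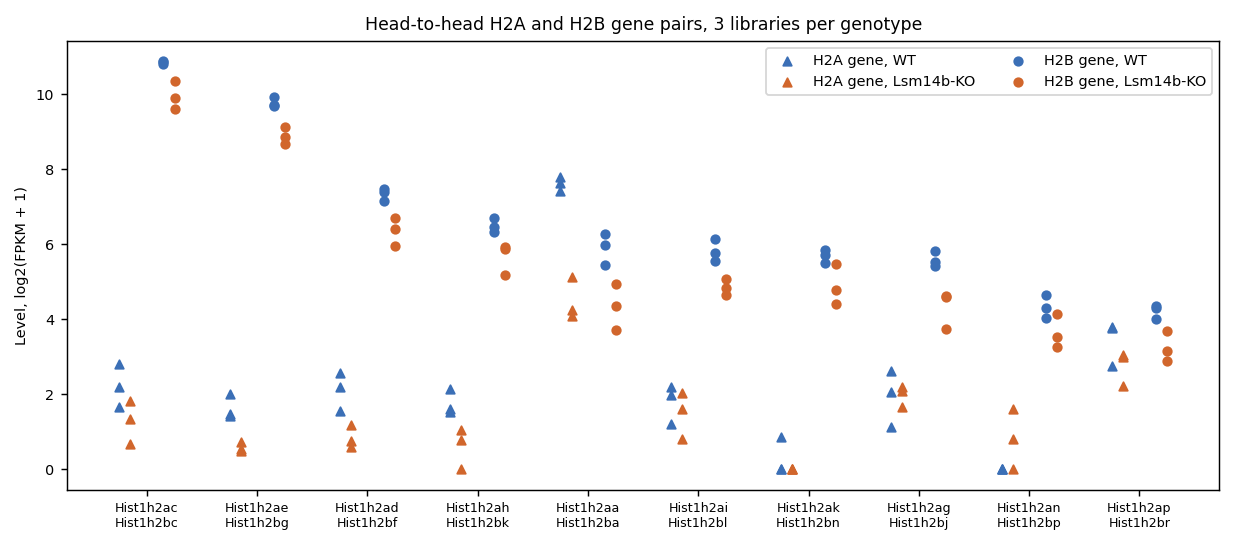
Levels of 10 divergently transcribed H2A and H2B gene pairs as log2(FPKM + 1), with triangles for the H2A and circles for the H2B gene, blue for WT and orange for Lsm14b-KO, 3 libraries each. The H2B gene is the higher one in 9 of these pairs in all libraries, and Hist1h2aa with Hist1h2ba is the exception.

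Among the abundant H2B genes the differences were alike and mostly just outside the threshold. Hist1h2bc, the most abundant member, had 1891, 1852 and 1781 FPKM in WT and 1320, 781 and 955 FPKM in Lsm14b-KO libraries. The groups did not overlap (log2 fold change -0.89, SE 0.30, adjusted p = 0.0658). Hist1h2be had 392, 303 and 258 FPKM against 202, 144 and 156 FPKM (log2 fold change -0.91, adjusted p = 0.0676), and it alone among the H2B genes passed under the length and GC correction (-0.94, adjusted p = 0.0412). That correction took Hist1h2be at the 2506 bases of its GENCODE model and no other tested H2B gene at more than 1256 bases. The part of this in its call was not tested. Hist1h2bf and Hist1h2bg stood as close to the threshold (adjusted p = 0.0552 and 0.0579), and Hist1h2bk, Hist1h2bn, Hist1h2bb and Hist1h2bp had adjusted p of 0.0876, 0.114, 0.162 and 0.139. All 16 tested H2B genes had a negative log2 fold change, from -0.32 for Hist3h2ba to -1.63 for Hist2h2bb, against 3401 of all 6398 genes. The groups did not overlap for 11 of the 16, against 26.0% of all genes in that direction. Called lower were 5, against 15.2% of all genes, with Hist1h2bj at -1.28 and Hist1h2bh at -1.25 as the largest falls besides Hist1h2ba. Of the 18 H2B genes 16 have a near-identical copy, counting Hist2h2bb, whose only match is a gene that overlaps it. The 16 tested H2B genes are thus not all separate observations. None of the 16 was called under TPM scaling, where their median was -0.26, or -0.66 relative to all genes. For Hist1h2bg the levels correspond to about 774, 762 and 677 fragments in WT and about 596, 634 and 805 in Lsm14b-KO libraries, at the greater depth of the latter.

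H2A genes other than Hist1h2aa were of low or moderate level. Hist2h2aa1, which shares its locus with its twin Hist2h2aa2, had 154, 138 and 169 FPKM in WT and 93.3, 73.3 and 99.1 FPKM in Lsm14b-KO libraries, without overlap (log2 fold change -0.80, adjusted p = 0.0772). The twin was listed at 0 in WT and at no more than 0.000519 FPKM in Lsm14b-KO libraries, far under the worth of 1 fragment. Hist3h2a had 38.2, 32.7 and 37 FPKM against 34.8, 25.5 and 30 FPKM, with overlap, and its log2 fold change turned from -0.26 (adjusted p = 0.47) to 0.42 under TPM scaling. Hist1h2ad, Hist1h2ae and Hist1h2ah were called lower, at -1.27, -1.06 and -1.16, from means under 5 FPKM. Hist1h2ae reached the limit of the filter in the WT libraries alone, with about 2, 4 and 2 fragments there and 1, 1 and 1 in Lsm14b-KO libraries. None of these 3 was called under TPM scaling or the length and GC correction. Hist1h2ap had 5.72 to 12.9 FPKM in WT and 3.62 to 7.23 FPKM in Lsm14b-KO libraries (adjusted p = 0.194), and Hist1h2ag lay between 1.17 and 5.15 FPKM in all 6 (log2 fold change 0.06, adjusted p = 0.92).

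Of 10 tested H4 genes 2 were called, both lower. That is 20%, against 21.6% of all genes called and 15.2% called lower. Hist4h4 is the only member on chromosome 6 (chr6:136801553-136804415, minus strand), and the GENCODE model, unlike the deposited one, runs far past the stem-loop. It had 24.6, 20.1 and 34.4 FPKM in WT and 8.49, 1.56 and 3.22 FPKM in Lsm14b-KO libraries. The difference of -2.51 on the log2 scale (SE 0.47, adjusted p = 0.0113) was past the threshold in 14 of 15 alternatives, the exception being the fit without Lsm14b-KO replicate 3 (adjusted p = 0.0605). About 17, 16 and 25 fragments stood behind it in WT and about 8, 2 and 5 in Lsm14b-KO libraries. Hist1h4a had 26.7, 26.6 and 25.4 FPKM in WT and 10.8, 4.28 and 10.1 FPKM in Lsm14b-KO libraries (log2 fold change -1.62, SE 0.34, adjusted p = 0.0169). It passed under TPM scaling (-0.99) and the length and GC correction (-0.77), but not without WT replicate 1, 2 or 3 or Lsm14b-KO replicate 3 (adjusted p = 0.0717, 0.0691, 0.0605 and 0.0557).

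The other H4 genes did not pass. Hist1h4c, the most abundant of them, had 52.1, 81.3 and 55.8 FPKM in WT and 47.4, 14.4 and 28 FPKM in Lsm14b-KO libraries (adjusted p = 0.0893). Hist1h4h, with 55, 60.4 and 42.2 FPKM against 32.5, 8.77 and 22.4 FPKM, was closest to the threshold (adjusted p = 0.0583), and Hist1h4i, Hist1h4j and Hist1h4k had log2 fold changes of -1.07, -1.37 and -0.67 (adjusted p = 0.0751, 0.208 and 0.113). Hist1h4d did not share their direction, with 22.5, 47.9 and 30.5 FPKM in WT and 61.6, 21.5 and 27.4 FPKM in Lsm14b-KO libraries. The fitted difference was 0.05 (log2, adjusted p = 0.942) on FPKM and 1.02 (adjusted p = 0.0498) after the length and GC correction. Hist2h4 was above 0 in Lsm14b-KO replicate 1 alone, at 1.48 FPKM, and passed the filter through that library. It was also called higher after that correction, but not on deposited FPKM (adjusted p = 0.38). For loci as short as those of Hist1h4c, Hist1h4d and Hist1h4j, with 376, 369 and 313 bases, the worth of a fragment could not be read and the FPKM scale is least certain.

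H3 genes were low throughout. Hist1h3g was the most abundant, with 12.9, 33.1 and 10.7 FPKM in WT and 13.2, 7.14 and 10 FPKM in Lsm14b-KO libraries (adjusted p = 0.25). Called lower were Hist1h3f and Hist1h3b. Hist1h3f had 6.04, 6.25 and 8.05 FPKM against 1.48, 2.47 and 3.08 FPKM (log2 fold change -1.24, SE 0.25, adjusted p = 0.0146), and Hist1h3b had 8.17, 4.49 and 9.84 FPKM against 2.85, 2.77 and 1.73 FPKM (log2 fold change -1.26, SE 0.30, adjusted p = 0.0252). Neither was called under TPM scaling (adjusted p = 0.184 and 0.145). Hist1h3a had 11.2, 6.52 and 3.07 FPKM against 6.33, 5.13 and 3.36 FPKM, with overlap (log2 fold change -0.31, adjusted p = 0.58). Every H3 gene has near-identical copies.

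Hist1h1a was the one H1 gene of some abundance. It had 19.9, 25.8 and 17.8 FPKM in WT and 16.2, 7.16 and 5.04 FPKM in Lsm14b-KO libraries, which did not overlap (log2 fold change -1.21, SE 0.40, adjusted p = 0.0625). Hist1h1e was the only member called higher, and it reached the 1 FPKM of the filter in the Lsm14b-KO libraries alone. It had 0.499, 0 and 0 FPKM in WT and 1.47, 1.53 and 1.56 FPKM in Lsm14b-KO libraries, which corresponds to about 1, 0 and 0 fragments against 4, 6 and 7. On the log2 scale it rose by 1.14 (SE 0.23, adjusted p = 0.0137), and the difference was 1.47 under TPM scaling and 1.91 after the length and GC correction. The call was lost without WT replicate 2 or 3 or Lsm14b-KO replicate 3 (adjusted p = 0.0618, 0.0541 and 0.0715) and with a pseudocount of 0.01 (adjusted p = 0.0544), and the GENCODE model of the gene overlaps that of Hist1h2be on the same strand. Hist1h1d stood at 0, 0 and 0.478 FPKM in WT and 0.371, 0.517 and 0.451 FPKM in Lsm14b-KO libraries and was not tested.

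The factors that make and bind the histone 3′ end were examined next. Of 31 such genes 18 were tested, of which 3 were higher and 2 lower, with a median log2 fold change of -0.18. Under TPM scaling 4 were higher and none lower (22.2%, against 13.0% of all genes called higher), with a median of 0.44 against 0.40 of all genes. Under quantile normalization and the length and GC correction 3 were higher and none lower (16.7%, against 8.44% and 10.1% called higher). Slbp, the stem-loop binding protein, was among the most abundant of them, with 3829, 3424 and 3961 FPKM in WT and 2857, 1167 and 1198 FPKM in Lsm14b-KO libraries. The groups did not overlap (log2 fold change -1.23, SE 0.39, adjusted p = 0.0561, 0.000242 without Lsm14b-KO replicate 1, where 47.0% of all genes passed). Without WT replicate 1, 2 or 3 or Lsm14b-KO replicate 3, neither Slbp nor any other processing factor was called lower. In these fits 5.06% to 8.55% of all genes passed. For Slbp the difference was -0.54 under TPM scaling (adjusted p = 0.0941) and -0.33 under quantile normalization (adjusted p = 0.262). Lsm10, a subunit of the U7 snRNP that cleaves histone pre-mRNA, fell from 4023, 3423 and 3140 FPKM to 2315, 907 and 1288 FPKM (log2 fold change -1.33, adjusted p = 0.0424, and 0.0516 under TPM scaling).

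Zfp473, a zinc finger protein of the U7 snRNP, rose from 0.608, 0.4 and 0.369 FPKM to 2.06, 4.52 and 2.66 FPKM (log2 fold change 1.44, SE 0.25, adjusted p = 0.00885), and it passed in all 15 alternatives. Cstf2 and Cstf2t, which encode forms of the cleavage stimulation factor subunit CstF-64, rose by 1.04 and 1.03 on the log2 scale. Zfp473 and Cstf2t reached the 1 FPKM of the filter in Lsm14b-KO libraries alone. Snrpf, an Sm protein of several snRNPs, fell by 1.24 and lost its call under TPM scaling (adjusted p = 0.119). Lsm11, the other U7-specific subunit, and Eri1, an exonuclease that trims the stem-loop end, stayed under 1 FPKM in every library and were not tested.

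Histones encoded outside the clusters, whose mRNAs are mostly polyadenylated, served for comparison. Among 19 such genes, 9 were tested and 5 were lower (55.6%, against 15.2% of all genes), with a median log2 fold change of -1.17. H1foo, the linker histone of oocytes, was more abundant than any cluster gene, with 7840, 7575 and 8407 FPKM in WT and 4962, 2909 and 3555 FPKM in Lsm14b-KO libraries (log2 fold change -1.09, SE 0.28, adjusted p = 0.031, and 0.0935 under TPM scaling). Cenpa, the H3 variant of centromeres, fell from 14.5, 9.54 and 13.4 FPKM to 0.798, 1.37 and 3.29 FPKM (log2 fold change -2.33, adjusted p = 0.00484). H2afv, an H2A.Z gene, fell from 9.6, 11.3 and 9.26 FPKM to 1.66, 0.852 and 0.253 FPKM (log2 fold change -2.59, adjusted p = 0.00202). Both passed in all 15 alternatives.

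H2afx, whose product is phosphorylated at DNA breaks, and H2afj were the other genes that fell, by 1.91 and 1.22. The call of H2afj was lost under TPM scaling (-0.55, adjusted p = 0.139) and quantile normalization (-0.81, adjusted p = 0.051). The H3.3 genes H3f3a and H3f3b, at log2 fold changes of -1.05 and -1.17, did not pass (adjusted p = 0.0943 and 0.0929). H2afz, the other H2A.Z gene, had 20.6, 22.5 and 27.9 FPKM in WT and 84.7, 24.8 and 44 FPKM in Lsm14b-KO libraries, with overlap (log2 fold change 0.92, adjusted p = 0.152). H2afz was called higher under TPM scaling (1.59, adjusted p = 0.0163), quantile normalization (1.36, adjusted p = 0.0413) and the length and GC correction (1.59, adjusted p = 0.0101). Histone genes outside and inside the clusters both had negative medians on deposited FPKM, -1.17 and -0.84, against -0.08 of all genes. After the length and GC correction these medians were -1.03 and -0.09, or -1.12 and -0.18 relative to all genes.

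**Figure D5:**
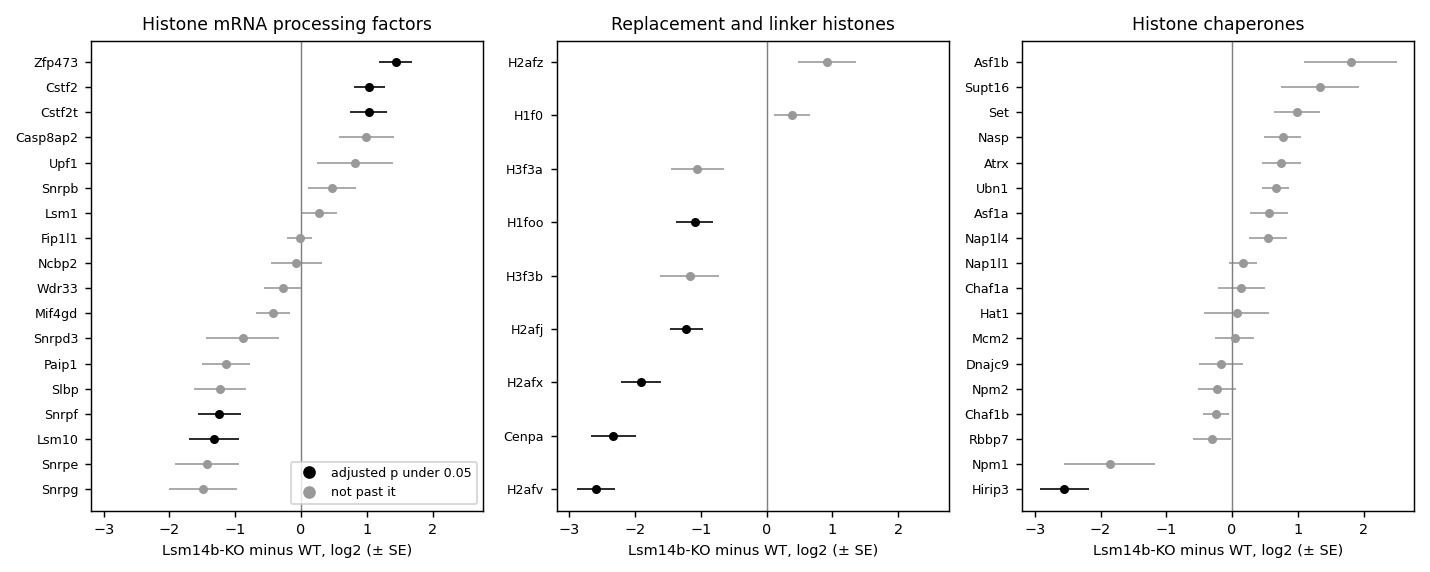
Fitted difference between Lsm14b-KO and WT libraries on the log2(FPKM + 1) scale (bars show SE, 3 libraries per genotype) of the tested processing factors, of the histones outside the clusters and of the histone chaperones. Black points passed an adjusted p under 0.05, as 5 of 18, 5 of 9 and 1 of 18 genes did, against 21.6% of all genes tested.

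Histone chaperones, which carry histones to DNA, did not share this pattern. Among 29 such genes, 18 were tested and 1 was called (5.56%, against 21.6% of all genes), with a median log2 fold change of 0.16. That gene was Hirip3, a histone-binding partner of HIRA, which fell from 38.2, 41.4 and 31.2 FPKM to 10.2, 3.34 and 4.48 FPKM (log2 fold change -2.55, SE 0.37, adjusted p = 0.00484) and passed in all 15 alternatives. Under TPM scaling 3 were higher and 1 was lower (22.2% called and 5.56% lower, against 20.6% and 7.60% of all genes). Of 12 other genes that mark DNA replication in dividing cells 7 were tested and none passed, with 2 at an unadjusted p under 0.05 and a median log2 fold change of -0.20. Under TPM scaling 1 of these 7, Rrm2, was higher (14.3%, against 13.0% of all genes).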

How the data were processed

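FPKM values of 6 RNA-Seq libraries, 3 WT and 3 Lsm14b-KO, were analyzed. Groups and replicate numbers come from the sample titles. Per the submitters' notes, reads of 150 bp pairs were trimmed and aligned to mm10 with TopHat2 2.0.13, and FPKM were computed with Cufflinks 2.2.1. The annotation is not given in the sources used here, and the labels name 2 library kits. The deposited FPKM table has 1 column per library. Its columns of fold changes and p-values hold the authors' own comparison and were not used. A total of 27 symbols had become dates and were kept as listed.

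Values were analyzed as log2(FPKM + 1) with limma 3.58.1 in R 4.3.3 (eBayes with trend), for genes with at least 1 FPKM in 1 or more libraries, two-sided, with Benjamini-Hochberg adjustment over 6398 genes. The table holds no counts, so no count model was fitted. This scale understates changes of low genes. A gene that reaches 1 FPKM in 1 genotype alone passes the filter through that group, so its call is not independent of the filter. The length and GC correction subtracted, in each library, a loess fit (span 0.5) on transcript length, capped at the deposited locus, and on the GC content of the whole GENCODE model. Relative depth is the commonest ratio of FPKM between 0.01 and 2, and fragments per value were estimated from 12 members with whole-number steps within 0.15. The fit was checked on simulated data. Copies were searched with blastn 2.17.0. Coordinates and stem-loops come from GENCODE vM21 (GRCm38).

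Members named are those with an adjusted p under 0.05, the 3 of highest mean per family, those at 1 FPKM or more in all 6 libraries, those at 0 in 1 group and above 0 throughout the other, and the germ-line genes Hist1h1t, Hist1h2aa and Hist1h2ba. Other genes are Lsm14b, 5 processing factors, 4 histones and listed genes that passed at a mean of 5 FPKM or more. Hist1h1b, Hist1h2ac, Hist2h2ac, Hist2h2bb, Hist2h4, Cstf2, Cstf2t, H2afx, Rrm2, marker genes and genes given for detection were named after their values were seen. The members, lists and tests were chosen with earlier results of these data known.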

Additional observations from a re-analysis of the deposited data

How the results depend on the processing

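The number of members called, 14 on deposited FPKM, was 6 with no filter on low values, 4 under TPM scaling, 9 under quantile normalization, 7 under the length and GC correction, and 2 to 29 when 1 library was left out, where 5.06% to 47.0% of all genes were called. The other 5 alternatives stayed within 1.5 times. Called processing factors, 5, numbered 4 under TPM scaling (all higher), 1 with no filter, 3 under quantile normalization, 3 under the length and GC correction and 1 to 12 with a library left out. Called histones outside the clusters, 5, numbered 3 to 7 with a library left out, and called chaperones, 1, numbered 4 under TPM scaling, 3 under quantile normalization, 2 under the length and GC correction and 1 to 8 with a library left out. Of all genes tested, 20.6%, 19.9% and 22.8% were called under these 3 scalings, in that order. With no filter on low values 5.03% were called. The members' median log2 fold change of -0.84 moved to -0.29, -0.46 and -0.09 under TPM scaling, quantile normalization and the length and GC correction. The ratio of summed FPKM moved from 0.521 to 0.829 under TPM scaling. In detection, Lsm14b-KO minus WT turned from 2 members above 0 to -5.33 at the limit of 1 FPKM. Among 49 named genes with 735 values, the direction turned in 9 genes. It turned for Hist3h2a (0.42, 0.19 and 0.62 under TPM scaling, quantile normalization and the length and GC correction), Hist3h2ba (0.23 and 0.50) and Hist1h3a (0.28 and 0.36, both under TPM scaling and the length and GC correction), and under the latter alone for Hist1h2bb (0.01), Hist1h2bg (0.01), Hist1h2bp (0.12) and Hist1h4k (0.05). With 1 library left out, the range crossed 0 for Hist1h2ag (-0.35 to 0.40, with -0.35 and -0.05 without WT replicate 3 and Lsm14b-KO replicate 1), Hist1h4d (-0.39 to 0.35, with -0.20 and -0.39 without WT replicate 1 and Lsm14b-KO replicate 1) and Hist1h3a (-0.72 to 0.07, with 0.07 without WT replicate 1). The causes were not tested.

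The fit with the replicate block called 13 members (23.6%, against 19.4% of all genes tested), 4 processing factors, 4 histones outside the clusters and 1 chaperone. The calls gained included that of Hist1h4i (adjusted p = 0.0307). Of the named genes Hist1h2bh (adjusted p = 0.0514), Hist1h2bl (0.0812), Hist1h2br (0.0614), H1foo (0.0583) and Snrpf (0.0522) lost their calls under the block. The labels give same-numbered libraries only a shared number. Their deviations from the group means correlated at 0.190, -0.128 and 0.018. Deviations within a group of 3 constrain each other, so these values cannot exclude that such libraries were collected together. Read totals were not used here, so depth is known in relative terms only and limits members below about 2 FPKM to a few fragments.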
